A study of Mus musculus with 2 samples.

Results

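The genes described here were 10 that are used to recognise type 2 innate lymphoid cells, followed in single-cell libraries from the lungs of NG2tdT mice. They were the transcription factors Gata3 and Rora, the surface receptors Il1rl1, Klrg1, Il2ra and Tnfrsf18, and the effector genes Areg, Calca, Arg1 and Tnfsf11, all found among the 31053 genes of the feature tables. A cell counted as carrying the set when at least 2 of the 10 genes had a UMI, a unique molecular identifier that stands for 1 captured transcript. Such cells numbered 25 of 293 retained cells in the Normoxia library and 20 of 453 in the Hypoxia library. The genes were chosen by their UMI counts in these same libraries, and the minimum of 2 with those counts known, so the numbers of cells and the levels in them are a description and carry no test.

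NG2tdT mice carry NG2-CreERTM, a tamoxifen-inducible Cre driven by the gene for the pericyte proteoglycan NG2, and the Ai14 tdTomato reporter. One group stayed in room air (Normoxia) and the other breathed 10% oxygen for 21 days (Hypoxia). Each group was 1 library of the 10x 3′ chemistry, and how lungs were pooled is not stated. The labels count 3 replicates a group and the study's text calls the animals wild type, whereas 1 matrix a group was analysed with no map from cells to animals. The labels describe tdTomato sorted cells, whereas the study's methods describe removal of CD45-positive and CD326-positive cells, and a sort or a depletion can set how many lymphoid cells a library holds.

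Type 2 innate lymphoid cells are tissue-resident lymphocytes without a rearranged antigen receptor. They respond to alarm cytokines such as interleukin 33, which binds the receptor encoded by Il1rl1, and they depend on GATA3 and RORα. In the lung they are known as a source of type 2 cytokines and of amphiregulin, and neuropeptides such as CGRP, a product of Calca, act on them and are made by some of them.

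The libraries held 1323874 UMIs in 373 barcodes (Normoxia) and 1989423 in 613 (Hypoxia), and retained cells had a median of 3135 and 2818 UMIs. Ptprc, the CD45 gene, had a UMI in 57 and 126 retained cells, and Cspg4, the NG2 gene, in 1 and 2. A total of 2 barcodes occurred in both libraries, and 0 of them carried the set. With 1 library a group, every difference between Normoxia and Hypoxia is one between these 2 libraries, and the 95% intervals cover counting error alone.

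In the annotation of mouse build GRCm38 the 10 genes lie on 9 chromosomes, and the 2 that share a chromosome, Gata3 and Il2ra, both lie on chromosome 2. RefSeq promoter sequence was at hand for 8 of them, all but Klrg1 and Arg1. The 250 bases before the start are shown for Calca and Tnfsf11, which had 0 UMIs in the Hypoxia library, and for the upstream start of Il1rl1, the receptor by which these cells are best known. Capitals mark GATAA, the core of a GATA site, or AGGTCA, the core of a ROR site, on either strand, so that TTATC and TGACCT are the same letters read on the other strand.
Calca, GRCm38.p6 chr7:114636358-114636607, minus strand: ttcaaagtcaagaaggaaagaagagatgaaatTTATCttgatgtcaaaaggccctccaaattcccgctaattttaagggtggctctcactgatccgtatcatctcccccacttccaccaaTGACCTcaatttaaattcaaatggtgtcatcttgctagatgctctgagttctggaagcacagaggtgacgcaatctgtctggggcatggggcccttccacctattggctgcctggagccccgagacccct
Tnfsf11, GRCm38.p6 chr14:78308044-78308293, minus strand: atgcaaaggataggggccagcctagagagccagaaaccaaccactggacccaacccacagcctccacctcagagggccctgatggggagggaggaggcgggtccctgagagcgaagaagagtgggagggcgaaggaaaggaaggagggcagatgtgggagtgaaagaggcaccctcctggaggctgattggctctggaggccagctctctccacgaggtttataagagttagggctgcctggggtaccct
Il1rl1, GRCm38.p6 chr1:40429320-40429569, plus strand: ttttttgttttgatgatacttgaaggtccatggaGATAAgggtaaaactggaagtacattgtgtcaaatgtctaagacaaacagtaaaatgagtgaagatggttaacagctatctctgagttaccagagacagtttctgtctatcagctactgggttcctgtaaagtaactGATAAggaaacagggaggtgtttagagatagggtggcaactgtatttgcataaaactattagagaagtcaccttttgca
GATAA occurred in the windows of 2 of the 8 genes, Il1rl1 and Calca, and in 22.6% of all 32851 promoter windows of this length. AGGTCA was found for 2 genes, Calca and the second start of Il1rl1, against 14.0% of all windows, and ACGTG, the core of a hypoxia response element, for Rora alone, against 16.6%. These matches are descriptions of letters, and a window without a match says nothing of the factor.

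Cells with at least 2 of the genes made up 8.53% of the Normoxia library (exact binomial interval 5.60% to 12.3%) and 4.42% of the Hypoxia library (2.72% to 6.74%). The difference was 4.12 percentage points (Newcombe interval 0.577 to 8.18). At the edge of the rule, exactly 2 genes were seen in 8 Normoxia and 13 Hypoxia cells, and exactly 1 gene in 64 and 95 cells. Cells with at least 3 genes were 17 (5.80%) in Normoxia and 7 (1.55%) in Hypoxia, and cells with at least 5 genes were 13 and 2. The highest number of the genes in 1 cell was 7 in Normoxia and 6 in Hypoxia. In B cell-like cells, which should lack the set, 0 of 31 Normoxia and 0 of 54 Hypoxia cells had at least 2 genes, at median depths of 4114 and 1862 UMIs. After each cell had been thinned to 1000 UMIs, 15 of 287 Normoxia cells (5.23%) and 8 of 418 Hypoxia cells (1.91%) carried at least 2, with 6 and 35 shallower cells left out.

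**Figure D1:**
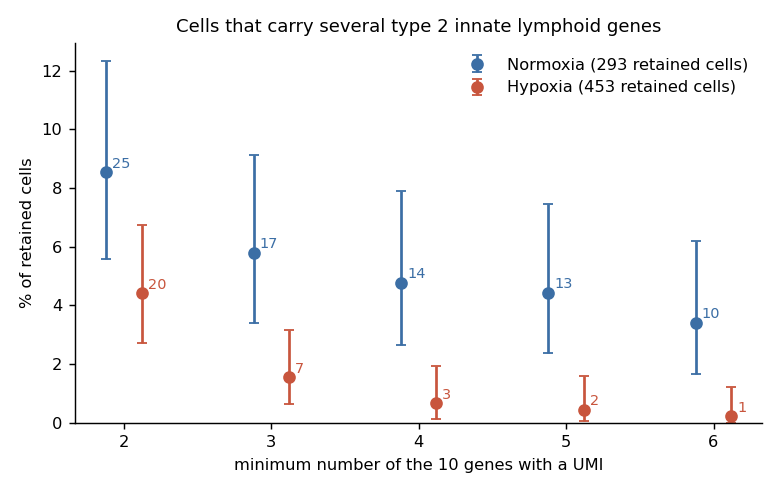
Share of retained cells (vertical axis, %) with at least 2 to 6 of the 10 genes (horizontal axis) in the Normoxia and the Hypoxia library, with exact 95% binomial intervals and the number of cells beside each point. The Normoxia share was the higher at each minimum, 10 cells against 1 at 6 genes.

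The cells that carried the set were of several kinds, and their mix differed between the libraries. Clustering the cells without the 10 genes gave a group of 19 Normoxia and 6 Hypoxia cells with 6 markers of type 2 lymphoid cells (Il7r, Thy1, Id2, Bcl11b, Cxcr6 and Il2rg) and 4 of T cells. It is called the type 2 lymphoid cell-like cluster, and its share was 6.48% in Normoxia (3.95% to 9.94%) against 1.32% in Hypoxia (0.488% to 2.86%). Of its cells 5 of 19 and 1 of 6 had Cd3d or Cd3e. The list that named it was not particular to it, since the T cell-like cluster met 7 genes of that list beside 9 of T cells. The type 2 lymphoid cell-like cluster was found again at other resolutions, but with 1000 variable genes no cluster took its name. Of the cells with at least 2 genes, 18 of 25 in Normoxia and 5 of 20 in Hypoxia fell in it. With at least 3 genes these numbers were 16 of 17 and 5 of 7.

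A second kind of cell met the minimum through Gata3 and Rora alone. It comprised 3 Normoxia and 5 Hypoxia cells without Cd3d or Cd3e, all in endothelial cell-like clusters, with median depths of 3808 and 9586 UMIs. A minimum of 3 genes removes these cells, and it is therefore used beside the minimum of 2 in what follows.

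The cells of the set that stood apart carried markers of other types. In Normoxia 1 endothelial cell-like cell with 10 Pecam1 and 10 Cdh5 UMIs had 7 of the genes, among them 11 UMIs of Areg, 8 of Arg1, 4 of Klrg1 and 4 of Tnfsf11. The same cell had lymphoid transcripts, with 3 UMIs of Il7r and 4 of the T cell receptor beta chain genes. Another Normoxia cell had 23 UMIs of Areg and 1615 of Sftpc, the surfactant gene of alveolar type 2 cells. The type 2 lymphoid cell-like cluster also held a Normoxia cell of 17959 UMIs with 9 UMIs of Cd3d and Cd3e, 10 of Pecam1 and none of the 10 genes. Scrublet, a doublet caller, marked 1 Normoxia and 2 Hypoxia cells and none with at least 2 of the genes, and the part of doublets in these cells was not tested further.

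**Figure D2:**
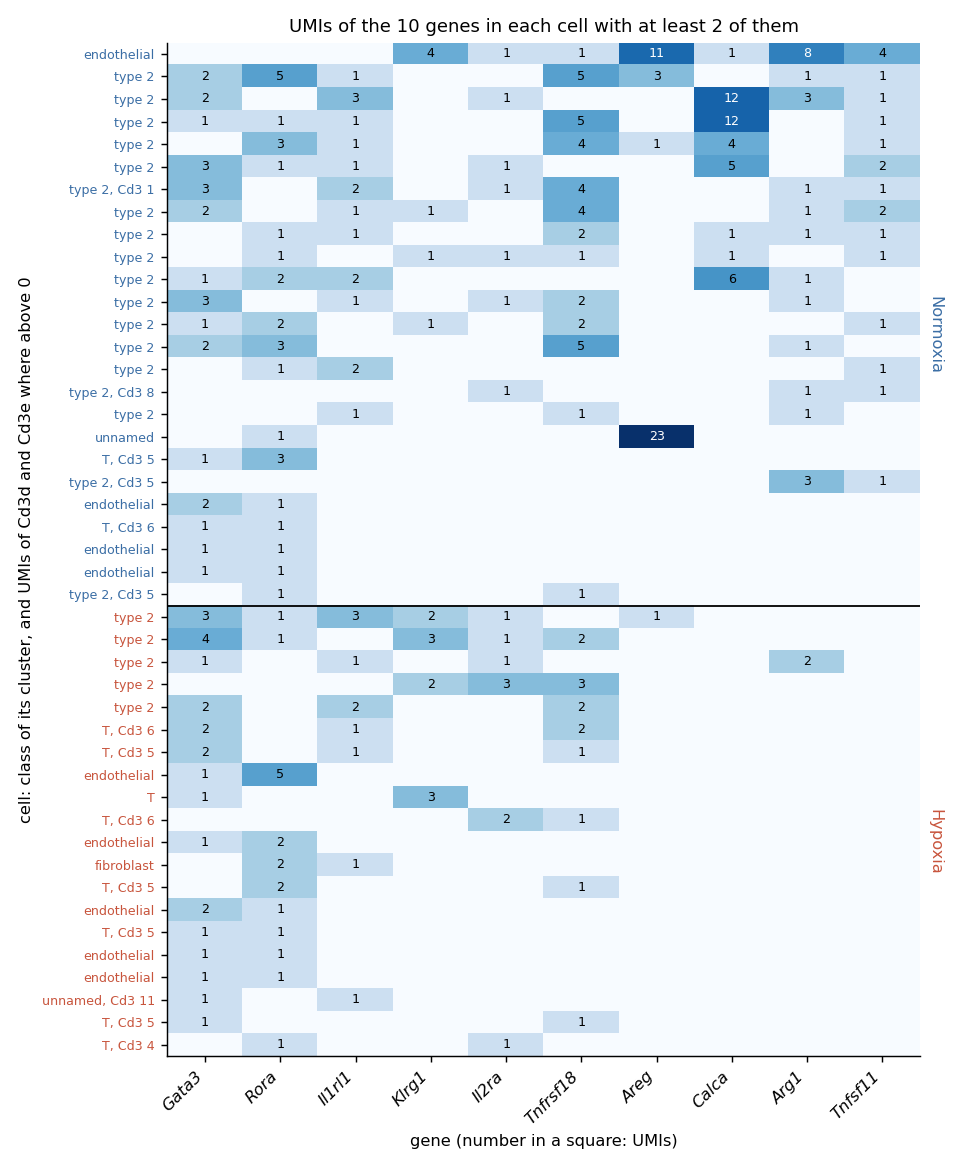
UMIs of each of the 10 genes (columns) in the 25 Normoxia and 20 Hypoxia cells with at least 2 of them (rows, named by the class of their cluster and their UMIs of Cd3d and Cd3e). Calca and Tnfsf11 were filled in Normoxia cells and empty in all 20 Hypoxia cells.

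Whether these cells are apart from T cells was asked with Cd3d and Cd3e, which encode chains of the CD3 complex. Of the cells with at least 2 genes, 6 of 25 in Normoxia (exact interval 9.36% to 45.1%) and 8 of 20 in Hypoxia (19.1% to 63.9%) had a UMI of either. Cells with Cd3d or Cd3e in all numbered 18 in Normoxia (6.14%) and 72 in Hypoxia (15.9%), so that their order between the libraries was the opposite of that of the set, with a difference of -9.75 percentage points (-14.0 to -5.20). For every 100 cells with Cd3d or Cd3e there were 139 cells with at least 2 genes in Normoxia and 27.8 in Hypoxia. In the Hypoxia library 2 of the 8 Cd3 cells of the set had a UMI of Foxp3, the factor of regulatory T cells. In the Normoxia library 3 of the 6 had a UMI of a gamma delta T cell receptor gene.

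A cell without Cd3d and Cd3e was not free of T cell receptor transcripts. All 15 Normoxia and all 5 Hypoxia cells with at least 3 genes and neither Cd3 gene had a UMI of Cd3g, Trac, Trbc1 or Trbc2. Trbc1, a constant part of the T cell receptor beta chain, was seen in 14 of the 15 Normoxia cells and 2 of the 5 Hypoxia cells. Trbc2, its neighbour, was seen in 14 and 4 of them. Trac, the alpha chain constant part, was seen in 2 and 0, against 9 of 18 and 55 of 72 cells with Cd3d or Cd3e. Among B cell-like cells 2 of 31 in the first library and 2 of 54 in the second had a UMI of these 4 genes. When any of the 6 genes made a cell a T cell, 84.0% of the Normoxia and 70.0% of the Hypoxia cells with at least 2 genes counted as T cells. The number of cells counted apart from T cells therefore depends on which of these genes mark a T cell. A 3′ count by gene does not show whether such a transcript came from a rearranged receptor gene.

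**Figure D3:**
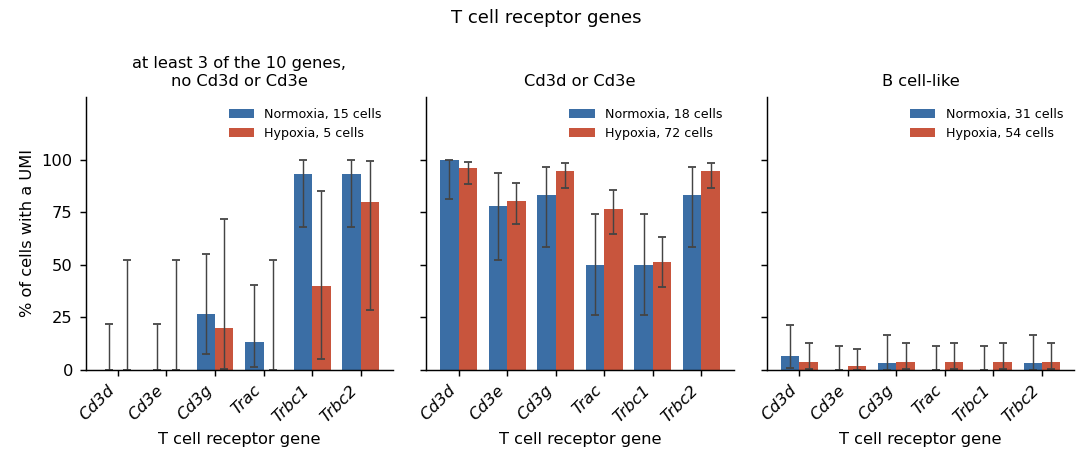
Share of cells with a UMI (vertical axis, %) of 6 T cell receptor complex genes (horizontal axis) in cells with at least 3 of the 10 genes and no Cd3d or Cd3e, in cells with either, and in B cell-like cells, with exact 95% binomial intervals. The first 2 genes are 0 in the left panel by construction. Trbc1 was seen in 14 of 15 Normoxia cells of that panel and Trac in 2.

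Per UMI, the 10 genes together were higher in the cells of the set without Cd3 than in cells with Cd3d or Cd3e. With any of the 6 T cell receptor genes as the mark of a T cell this excess was not seen. The log2 ratios were then -0.12 (-0.72 to 0.42) in Normoxia and -0.063 (-0.85 to 0.65) in Hypoxia, and both intervals include 0. The cells left under that mark had exactly 2 of the genes, and none was in the type 2 lymphoid cell-like cluster. They were endothelial cell-like, fibroblast-like or unnamed. Cells with at least 2 genes and no Cd3 had 3002 CPM, or UMIs per 1000000 UMIs of the same cells, against 383 CPM in Normoxia, a log2 ratio of 2.97 (exact conditional interval 2.43 to 3.55), and 738 CPM against 183 CPM in Hypoxia, where the log2 ratio was 2.01 (1.45 to 2.58). With at least 3 genes the log2 ratios were 3.30 (2.76 to 3.89) and 4.03 (3.39 to 4.65). The cells had been picked for having these UMIs. The type 2 lymphoid cell-like cluster, made without the genes, had log2 ratios of 3.51 (2.64 to 4.54) and 3.55 (2.91 to 4.18) over the Cd3 cells outside it. The genes were chosen by their counts in these libraries, and Calca, Il1rl1, Tnfsf11, Arg1 and Il2ra were among the leading genes of the cluster. Its ratios are therefore a description as well. In Normoxia, 7 of 7 genes with at least 20 UMIs were at least 2-fold higher in cells with at least 2 genes and no Cd3, and 0 were lower, where 19.4% of all 948 genes were higher and 7.81% lower. In Hypoxia 1 of 2 was higher, Gata3, and 0 were lower, where 28.4% of 2179 genes were higher and 16.2% lower. Nothing is read from these counts, since the same UMIs chose the cells. Gata3 had log2 ratios of 1.59 (0.36 to 2.98) in Normoxia and 1.80 (0.71 to 2.91) in Hypoxia. Tnfrsf18 was the other gene measured in both, at 2.88 (lower bound 1.51) and -0.09 (-1.56 to 1.17), the second from 7 UMIs in the cells of the set without Cd3 against 23 in Cd3 cells. Klrg1, Areg and Calca had 0 UMIs in Cd3 cells of both libraries.

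Gata3, the master regulator of type 2 lymphocytes (chr2:9857078-9890034, GRCm38), was spread over several kinds of cell. It had 38 UMIs in 24 Normoxia cells and 66 UMIs in 46 Hypoxia cells, and the log2 ratio of Hypoxia over Normoxia was 0.28 (-0.32 to 0.89). Its level was highest in the type 2 lymphoid cell-like cluster, with 270 CPM (165 to 417) in Normoxia and 533 (256 to 981) in Hypoxia. T cell-like cells followed with 130 (42.3 to 304) and 65.9 (38.4 to 106), and endothelial cell-like cells with 42.3 (22.5 to 72.4) and 50.2 (35.4 to 69.2). The intervals of T cell-like and endothelial cell-like cells overlapped in both libraries, and those of the cluster and T cell-like cells in Normoxia.

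Rora encodes the nuclear receptor RORα and lies on chromosome 9 (chr9:68653786-69388246). It had 92 UMIs in 63 Normoxia cells and 69 UMIs in 53 Hypoxia cells, and 46 and 42 of those cells had none of the other members. In Normoxia its level in the cluster, 283 CPM (175 to 433), was close to that in mural cell-like cells, 240 (166 to 335), and above fibroblast-like cells, 90.2 (55.1 to 139). In Hypoxia fibroblast-like cells had 164 (94 to 267), and the cluster had 2 UMIs. Over all cells the log2 ratio of Hypoxia over Normoxia was -0.93 (-1.40 to -0.47). Mural cell-like cells, which held 34 of the Normoxia UMIs and 4 of the Hypoxia UMIs, numbered 45 and 6, and their level of Rora differed by a log2 ratio of -0.01 (-1.97 to 1.48).

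Among the receptors, Il1rl1 encodes ST2, the receptor for interleukin 33 (chr1:40429570-40465415). It had 22 UMIs in 15 Normoxia cells and 10 UMIs in 7 Hypoxia cells, and 12 of the 15 and 3 of the 7 were in the type 2 lymphoid cell-like cluster. Over all cells the log2 ratio was -1.65 (-2.90 to -0.52). In the cluster its level was 229 CPM in Normoxia and 320 in Hypoxia (log2 ratio 0.48, interval -1.15 to 1.89).

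Klrg1, an inhibitory lectin-like receptor (chr6:122270596-122282882), had 7 UMIs in 4 Normoxia cells and 11 UMIs in 5 Hypoxia cells. Of the 7, 4 were in the endothelial cell-like cell described above. Within the cluster Klrg1 was present in 3 of 19 Normoxia and 3 of 6 Hypoxia cells, which differed by -34.2 percentage points (-67.1 to 3.87). Its level there was 40.5 CPM from 3 UMIs and 373 CPM from 7 UMIs, with a log2 ratio of 3.21 (1.07 to 5.79), while over all cells the ratio was 0.13 (-1.36 to 1.74). Il2ra, the alpha chain of the interleukin 2 receptor (chr2:11642807-11693193), had 8 UMIs in 8 Normoxia cells and 9 UMIs in 6 Hypoxia cells, and 6 and 4 of those cells were in the cluster. Its level there was 80.9 CPM and 320 CPM, a log2 ratio of 1.98 (0.08 to 3.89) on 6 UMIs in each library.

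Tnfrsf18 encodes GITR, a costimulatory receptor of lymphocytes (chr4:156026164-156028895), and was the member with the highest share of its Hypoxia cells among T cell-like cells. It had 39 UMIs in 15 Normoxia cells, with 36 of the UMIs in the cluster. In Hypoxia it had 35 UMIs in 28 cells, and 20 of those cells were T cell-like. The T cell-like cells had 89.2 CPM there (56.5 to 134) and the cluster 373 (150 to 769). In Normoxia the 11 T cell-like cells had 0 UMIs. Over all cells the log2 ratio of Hypoxia over Normoxia was -0.67 (-1.37 to 0.02).

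Each of the effector genes had 3 UMIs or fewer in Hypoxia. Calca encodes calcitonin and, by splicing, the neuropeptide CGRP, which a 3′ count by gene does not separate (chr7:114631478-114636357). It had 43 UMIs in 9 Normoxia cells and 0 in the 453 Hypoxia cells, which allows a UMI in up to 0.662% of Hypoxia cells when 0 is taken as 3 counts. Of the 9 cells 7 were in the type 2 lymphoid cell-like cluster, with 41 of the 43 UMIs, and 2 cells with 12 UMIs each held 24 of the 43. With 3 counts as the floor, Calca was 20.5-fold lower per UMI in Hypoxia over all cells, where the exact interval ended at a log2 ratio of -4.00. Without those 2 cells, a choice made after seeing the data, it was 9.10-fold lower at that floor. Within the cluster, with its 6 Hypoxia cells, the floor gave 3.46-fold, and the exact interval ended at a log2 ratio of -1.43. Calcb, the related CGRP gene, had 0 UMIs in both libraries.

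Tnfsf11 encodes RANKL, a ligand of the TNF family (chr14:78277445-78308043). It had 21 UMIs in 16 Normoxia cells, with a highest value of 4 in 1 cell, and 0 UMIs in Hypoxia. With the same floor it was 10.0-fold lower over all cells, and the exact interval ended at a log2 ratio of -2.90. Within the cluster, which held 15 of the 21 UMIs, the floor gave 1.26-fold and the exact interval of the ratio included no change. The cluster showed it in 13 of 19 Normoxia cells but in 0 of 6 from Hypoxia, a difference of 68.4 percentage points (23.4 to 84.6). For Calca the same difference was 36.8 points (-6.01 to 59.0), and the 2 intervals overlap. In Normoxia the 2 cells with most UMIs held 28.6% of the Tnfsf11 UMIs and 55.8% of the Calca UMIs.

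Arg1 encodes arginase 1, which breaks down arginine (chr10:24915221-24927484). It had 23 UMIs in 12 Normoxia cells and 2 UMIs in 1 Hypoxia cell, a log2 ratio of -4.04 (-7.17 to -2.02). The cluster held 15 of the Normoxia UMIs in 11 cells and both Hypoxia UMIs, and there the log2 ratio was -0.92 (-4.10 to 1.18).

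Areg encodes amphiregulin, a ligand of the EGF receptor (chr5:91139599-91148432). It had 38 UMIs in 4 Normoxia cells and 3 UMIs in 2 Hypoxia cells, a log2 ratio of -4.18 (-6.52 to -2.52). The value rests on the Normoxia cells with 23 and 11 UMIs, which lay outside the type 2 lymphoid cell-like cluster. Without these 2 cells Areg had 4 UMIs against 3, a log2 ratio of -0.96 (-3.73 to 1.61).

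**Figure D4:**
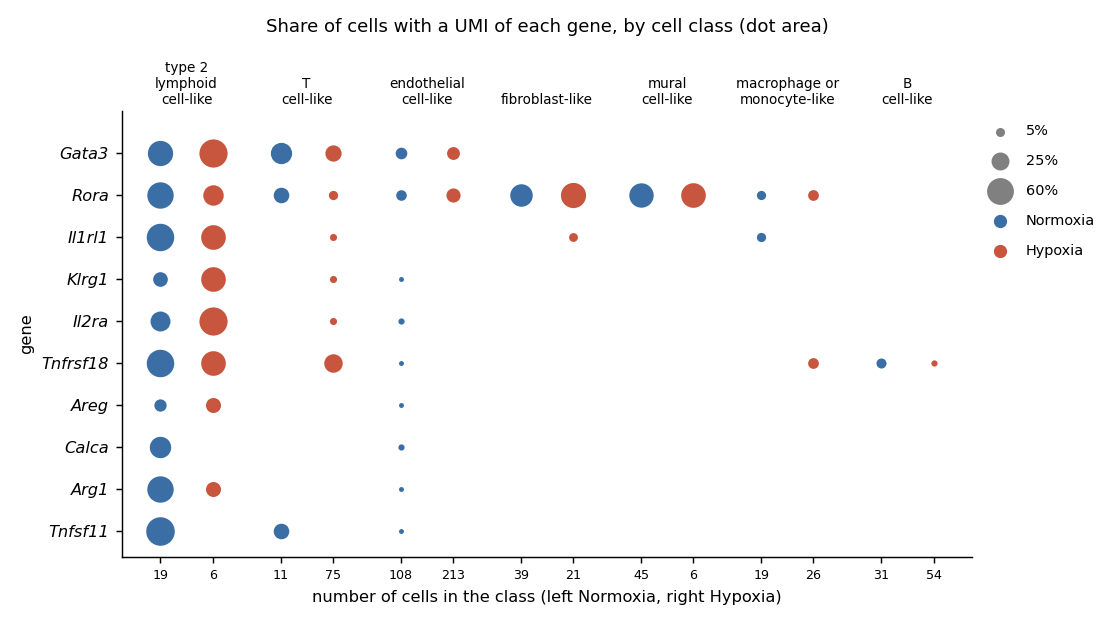
Share of cells with a UMI (dot area) of each of the 10 genes (vertical axis) in 7 cell classes, with Normoxia on the left and Hypoxia on the right of each class and the number of cells on the horizontal axis. Calca, Arg1 and Tnfsf11 were seen mostly in the 19 Normoxia cells of the type 2 lymphoid cell-like cluster, which held 2 of the 4 Normoxia cells with Areg, whereas Rora was also seen in 22 of 45 Normoxia mural cell-like cells and Gata3 in 25 of 213 Hypoxia endothelial cell-like cells.

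Hypoxia was then set against Normoxia over all retained cells. Of the 10 genes 8 had at least 20 UMIs in both libraries together, and Klrg1 and Il2ra did not. Of the 8, 5 were at least 2-fold lower in Hypoxia (Il1rl1, Areg, Calca, Arg1 and Tnfsf11) and 0 were at least 2-fold higher, where 8.13% of all 9813 genes were that much lower and 6.21% that much higher. The genes had been chosen with these counts known, so nothing is read from this share. Their median log2 ratio was -2.49 with genes at 0 placed at the floor, and that of all genes was 0.040. The 10 genes together had 298 CPM in Normoxia and 129 in Hypoxia, so that the log2 ratio was -1.21 (-1.47 to -0.95). Without the Normoxia cells with 23 and 11 UMIs of Areg, Areg, Arg1 and Tnfsf11 fell below 20 UMIs, and 2 genes (Il1rl1 and Calca) were at least 2-fold lower. Without those cells Arg1 still had a log2 ratio of -3.45 (-6.62 to -1.34), and Tnfsf11, with 0 taken as 3 counts, was 8.24-fold lower.

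**Figure D5:**
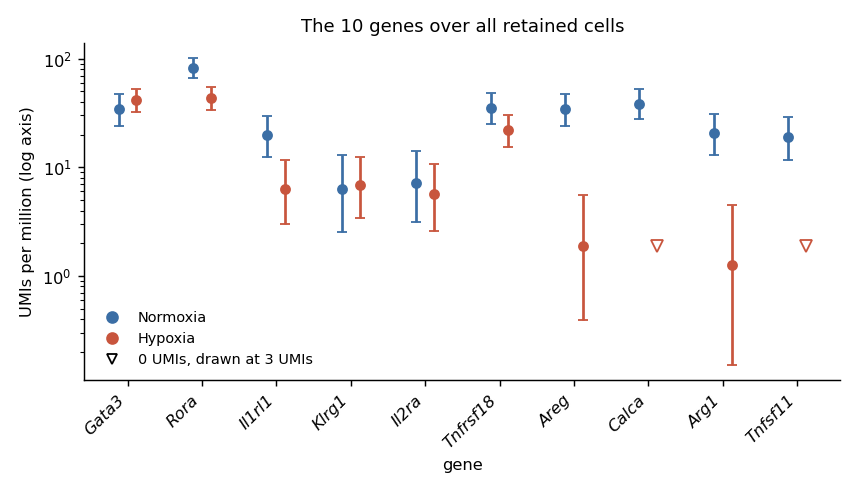
CPM (vertical axis, log scale) of each gene (horizontal axis) over all retained cells of the Normoxia and the Hypoxia library, with exact 95% Poisson intervals. Open triangles stand for 0 UMIs and are drawn at 3 UMIs. The intervals of Gata3, Klrg1, Il2ra and Tnfrsf18 overlap, and Areg, Calca, Arg1 and Tnfsf11 lie far apart.

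The type 2 lymphoid cell-like cluster held 178 of the 331 Normoxia UMIs of the 10 genes and 41 of the 205 Hypoxia UMIs, and endothelial cell-like cells held 16.3% and 37.6%. In Normoxia 1 cell had 30 of the 54 UMIs of endothelial cell-like cells. Within the cluster the summed level was 2401 CPM in Normoxia (2061 to 2780) and 2187 in Hypoxia (1569 to 2966), a log2 ratio of -0.13 (-0.66 to 0.36). Outside the cluster the log2 ratio was -0.50 (-0.83 to -0.17). That value includes the Normoxia cells with 23 and 11 UMIs of Areg, the second of which was the endothelial cell-like cell with 30 UMIs of the 10 genes. The ratio outside the cluster was not computed without these cells, so no difference is read from it.

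Inside the cluster the genes were also summed by role. The 4 effector genes together had 75 UMIs in Normoxia and 3 in Hypoxia, or 1011 and 160 CPM, a log2 ratio of -2.66 (-4.97 to -1.06). Calca held 41 of these Normoxia UMIs. An effector UMI was present in 17 of the 19 Normoxia cells but in 2 of the 6 from Hypoxia, a difference of 56.1 percentage points (14.0 to 81.0). The 4 receptors had 62 and 26 UMIs, or 836 and 1387 CPM, a log2 ratio of 0.73 (0.01 to 1.41), and 0.46 (-0.40 to 1.25) without the cell of most UMIs in each library. The 2 transcription factors had a log2 ratio of 0.21 (-0.85 to 1.17). In cells with at least 3 genes and no Cd3 the effector ratio was -3.08 (-5.38 to -1.48) and the receptor ratio 0.66 (-0.06 to 1.35). Of the members, 5 had at least 20 UMIs in the cluster, of which Calca and Rora were at least 2-fold lower in Hypoxia and 0 were higher, where 9.84% and 2.91% of 549 genes were lower and higher. Calca and Rora passed that minimum through their Normoxia UMIs, the interval of Rora included 0 (-4.55 to 0.62), and Klrg1 with 10 UMIs did not pass, so nothing is read from this count. The Hypoxia side of each of these values is 6 cells or fewer of 1 library.

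Of a list of 20 other genes of type 2 lymphoid cells, 13 had a UMI in the 15 Normoxia cells with at least 3 genes and no Cd3, and 5 in the 5 Hypoxia cells, against 12 in the Cd3 cells of each library. In Normoxia 3 of the 20 had a log2 ratio over Cd3 cells whose interval lay above 0 and 1 below, and in Hypoxia 2 above and 1 below. The Cd3 cells numbered 18 and 72, so the sets differ in size. No share over all genes was computed beside these counts, and nothing is read from them. Thy1 and Bcl11b, markers that named the cluster, had ratios of -0.75 (-1.83 to 0.24) and -0.36 (-2.04 to 1.14) in Normoxia. Id2, a helix-loop-helix factor needed by innate lymphoid cells, had 78 and 29 UMIs and was higher than in cells with Cd3d or Cd3e in both libraries, with log2 ratios of 1.95 (1.36 to 2.58) and 2.84 (2.17 to 3.47). Il2rg, the shared cytokine receptor chain, was at 283 CPM against 108 CPM in Cd3 cells in Normoxia and 510 CPM against 168 CPM in Hypoxia. Tcf7, the factor TCF-1, had 0 UMIs in the cells with at least 3 genes and no Cd3, and 19 and 76 in the Cd3 cells. With 0 taken as 3 counts it was 3.75-fold and 1.30-fold lower, and the exact intervals ended at log2 ratios of -1.47 and -0.047. The type 2 cytokine Il5 had 1 UMI in Normoxia, and Il13 and Il4 had 0 in both libraries.

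The partners of the members were looked for as well. Ramp1, which completes the CGRP receptor, had 26 UMIs in 13 of the 15 Normoxia cells and 4 UMIs in 3 of the 5 Hypoxia cells, with log2 ratios over Cd3 cells of 1.65 (0.66 to 2.70) and 1.82 (-0.17 to 3.38). Calcrl, its partner chain, had 5 and 2 UMIs there. Of 8 ligands of the receptors, Il33, the ligand of ST2, had 37 UMIs in the retained Normoxia cells and 20 in the Hypoxia cells (log2 ratio -1.40, interval -2.27 to -0.58). It had 0 UMIs in the cells with at least 3 genes and no Cd3. Fibroblast-like cells held 26 and 19 of these UMIs, at 117 and 195 CPM, and numbered 39 and 21. Egfr, the receptor for amphiregulin, had 20 UMIs in Normoxia, 16 of them in fibroblast-like cells, and 1 in Hypoxia. Over the 20 wider genes 11 had at least 20 UMIs in all retained cells, and 1 was at least 2-fold higher and 1 lower, beside 6.21% and 8.13% of all genes. Of the 8 ligands 4 were measured with 0 higher and 1 lower, and of 8 receptors for the effectors 5 with 0 higher and 1 lower.

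Markers of other cell types were read in the cells with at least 3 genes and no Cd3. None of the 6 basophil and mast cell genes, 5 neutrophil genes, 5 dendritic cell genes and 4 genes of the other innate lymphoid groups had a UMI in either library. Of the 7 NK cell genes 1 had 1 UMI in Normoxia and none had any in Hypoxia. The T cell coreceptors Cd4, Cd8a and Cd8b1 were at 0, as were the B cell genes Cd79a, Cd79b and Ms4a1. Genes of gamma delta T cells had 11 UMIs in 5 Normoxia cells and 1 UMI in Hypoxia. Genes of mural cells, the cells that NG2 is known to mark, were at 0 in Normoxia for all 10 of the list, and in Hypoxia 1 of 10 had 1 UMI. Endothelial genes had 105 UMIs in 7 of the 15 Normoxia cells, among them the endothelial cell-like cell described above, which had all 10 Cdh5 UMIs. In the Hypoxia cells endothelial genes had 1 UMI. How many of these cells carried the tdTomato reporter was not analysed here.

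The genes whose cells were most often cells of the set were ranked by the share of their positive cells with at least 2 of the 10 genes, where 6.03% of all 746 retained cells had at least 2. Dach2, a transcription cofactor, led with 8 of 8 cells, followed by Pdcd1, the checkpoint receptor PD-1, with 7 of 8. The next were Pglyrp2, Igsf5, Acsbg1, Podnl1, Tnfsf14, Slc6a13, Tcrg-C1 and Nrgn, at 70.6% to 85.7%. These genes were seen in 5 to 17 cells.

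The 10 genes furthest above Cd3 cells in cells with at least 2 genes and no Cd3 were Sema3c, Col4a1, Sparc, Slco2a1, BC028528, Foxf1, Bmpr2, Cav1, S100a16 and Epas1, and most of their UMIs came from the endothelial cell-like cells of the set. For Sema3c that was 149 of 151 UMIs. Ranked again in cells with at least 3 genes, a choice made after these values had been seen, the first was the chemokine Cxcl2 with 104 UMIs in 7 of 15 Normoxia cells and 0 UMIs in the 5 Hypoxia cells. It was followed by Bhlhe40, a factor of cytokine-producing lymphocytes, with 37 UMIs in 9 Normoxia cells and 9 UMIs in 4 Hypoxia cells. Nrgn, also among the genes ranked by share of positive cells, was the third, with 19 UMIs in Normoxia, 3 in Hypoxia and 0 in the 90 Cd3 cells.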

How the data were processed

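The Normoxia and the Hypoxia library of mouse lung cells were measured with the 10x 3′ chemistry. The values deposited by the authors are UMI counts, not normalised, for each gene in each barcode, with amplification copies collapsed. The labels name Cell Ranger, Seurat and mm10, the matrix header gives software version 3.1.0, and the study's methods state STAR alignment. A barcode was retained if it had 200 to 6000 genes with a UMI and no more than 5% of UMIs from mitochondrial genes, which left 293 of 373 and 453 of 613.

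The 10 genes, the other gene lists and the comparisons were chosen with earlier results of these data known. Cells were clustered with scanpy 1.11.5 after scaling to 10000 UMIs (genes in at least 3 cells, 2000 variable genes without the 10, 15 components, 15 neighbours, Leiden resolution 1). A cluster was named after the list with most markers, of at least 3, seen in at least 25% of its cells and at least 2-fold over the median cluster, and stayed unnamed where leading genes went against the name or its median depth was under the median of its libraries divided by 3 with no marker among the 10 leading genes.

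UMIs were summed per library over a set of cells and divided by all UMIs of that set. Intervals are 95% (exact Poisson for levels, exact conditional binomial for ratios, Clopper-Pearson for shares, Newcombe for differences of shares). They cover counting error, and since cells are not replicates no test was made. A count of 0 was taken to allow 3 counts. Ratios were counted for genes with at least 20 UMIs, and the ratio code was tested on simulated data. Doublets were not removed. Named genes are the 10, the lists by role, the first 10 by share of positive cells with at least 2 of the 10 (at least 5 positive cells), and the first 10 by ratio to Cd3 cells (at least 10 UMIs, in at least 30% of the set). Mitochondrial, ribosomal protein, Gm and Rik genes were left out of both rankings. Overlapping genes in the feature tables had at most 1 UMI in a library. Gm37881, which overlaps Il2ra on the same strand, was not among the counted genes. Alternatives were other filters, Scrublet, thinning, other T cell definitions, equal weight per cell and other cluster settings.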

Additional observations from a re-analysis of the deposited data

Results flagged for a closer look

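In barcodes that the filters had left out, the 10 genes together had 29 UMIs in 160 Hypoxia barcodes and 4 UMIs in 80 Normoxia barcodes, or 73.0 and 18.9 CPM (UMIs per 1000000 UMIs), a log2 ratio of Hypoxia over Normoxia of 1.95 (0.44 to 3.92). This is a signal outside the comparisons above, and its direction is the opposite of that in retained cells. Gata3 and Rora made up 26 of the 29 and 3 of the 4 UMIs. Haemoglobin genes took 16.5% of the Hypoxia and 55.2% of the Normoxia UMIs of these barcodes, and their part in the ratio was not tested. Of these barcodes 2 Hypoxia and 0 Normoxia ones had at least 2 of the genes. With 1 library a group, the search for samples that stand apart within a group could not be made.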

How the results depend on the processing

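No paired analysis was possible because each group is 1 library. The Normoxia share of cells with at least 2 genes exceeded the Hypoxia share under all 18 alternatives, by 2.07 to 5.89 percentage points, including each gene left out in turn. The share of the set with T cell genes moved to 84.0% (Normoxia) and 70.0% (Hypoxia) when any of 6 T cell receptor genes counted. Under that definition the log2 level against T cells was -0.12 in Normoxia and -0.063 in Hypoxia, with intervals that include 0. There 21 of the 25 Normoxia cells of the set count as T cells, and no cell left is in the type 2 lymphoid cell-like cluster. With equal weight per cell the log2 level against Cd3 cells was 2.76 in Hypoxia, and the cause was not tested. The log2 ratio of Hypoxia over Normoxia for the summed genes lay between -1.32 and -1.16 under 6 of its alternatives. It moved to -0.50 without the type 2 lymphoid cell-like cluster and to -0.13 within it, both chosen after seeing the data. The value of -0.50 includes the 2 Normoxia cells with most Areg and was not computed without them. The number of genes at least 2-fold lower was 5 of 10 with a minimum of 10 UMIs, 0 of 3 with a minimum of 50, and 2 without the 2 cells with most Areg, another choice made after seeing the data. The share of UMIs in the type 2 lymphoid cell-like cluster held at resolutions 0.6 and 1.6, and with 1000 variable genes no cluster took that name. With 6 Hypoxia cells in that cluster, depth limits every value within it.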
